A study of Homo sapiens with 12 samples.

Results

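The subject here is the change of Arid5a enrichment with IL-17: for each transcript, its recovery with the FLAG antibody over recovery with control IgG in IL-17-treated cells, set against the same ratio in untreated cells. All 12 libraries of the series enter it, as 4 groups of 3. HK2, an established cell line of human kidney epithelium, was used throughout. Every dish was transfected with 10 µg of plasmid for human Arid5a with a FLAG tag, so the control groups carry the plasmid too. Cells then spent 3 h with IL-17 (200 ng/mL) or with medium, and lysates were precipitated with anti-FLAG or with mouse IgG1. The groups are therefore FLAG IL-17, IgG IL-17, FLAG medium and IgG medium. The tagged protein is expressed from a plasmid on top of whatever the cells make themselves, which limits the groups as a model of endogenous Arid5a. The labels do not state whether the replicates were separate cultures. The spread behind each p-value may therefore be technical only.

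Arid5a is an AT-rich interaction domain protein that also binds RNA, and it is known for stabilising messages of inflammation such as that of interleukin-6. IL-17 is a T-cell cytokine that makes epithelial cells produce chemokines, in part by prolonging the life of short-lived mRNAs through RNA-binding proteins. In RNA immunoprecipitation, RNA held by the tagged protein is recovered with the antibody, and IgG shows what the beads retain by themselves. A change of enrichment can thus come from any of 4 groups, and IgG counts as much as FLAG.

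The tables list transcripts by versioned Ensembl identifier and do not pair these with gene names. The ensembl column of the reference gene table was empty, so 0 of 60708 identifiers could be named. Features are for that reason described by level, length and counts, with 2 identifiers in each direction. The epithelial and tubular markers of HK2, the transfected gene and the reported Arid5a target mRNAs were not analysed here.

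The libraries differed most in the IgG medium group. A tested feature is one that passed the filter on low counts, of which there were 24040. In IgG medium, 58.6% of these had a count of 0 in replicate 1, 4.73% in replicate 2 and 42.7% in replicate 3. In the other groups this share ran from 0.52% in IgG IL-17 replicate 1 to 19.6% in FLAG medium replicate 3. Total estimated counts ran from 746911 to 7563477 in the medium libraries and from 5365495 to 17723140 in the IL-17 libraries. Replicate 2 of IgG medium thus holds counts for many features that its partners lack.

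**Figure D1:**
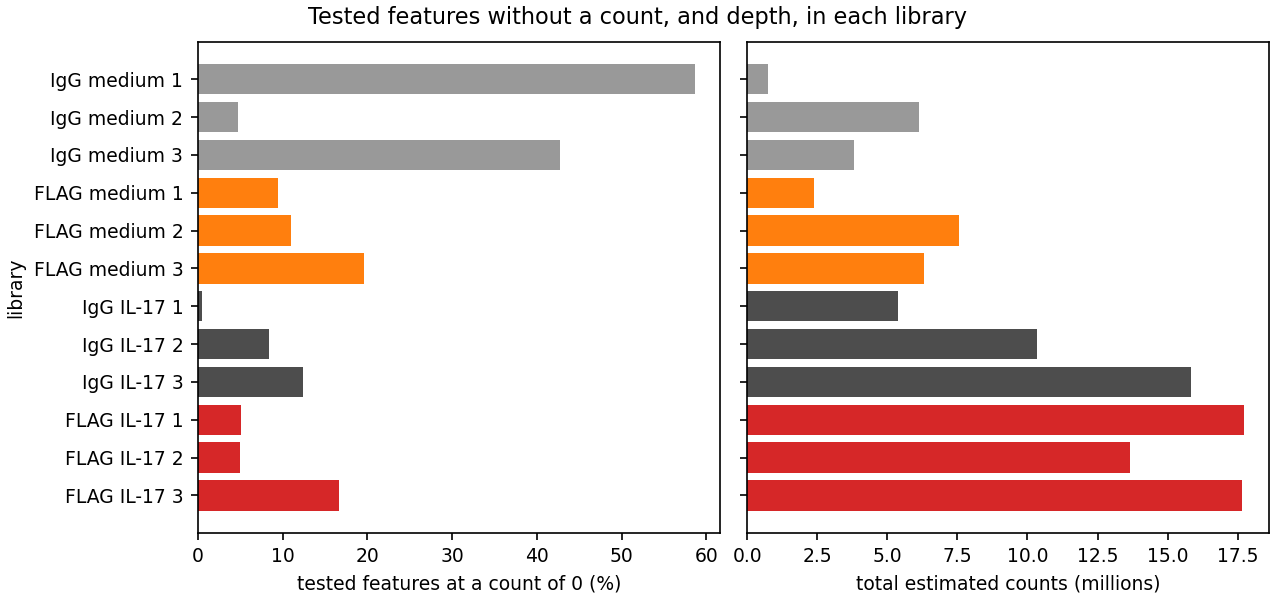
Share of the 24040 tested features with a count of 0 (left, %) and total estimated counts (right) in each of the 12 libraries, coloured by group. IgG medium replicates 1 and 3 lack a count for 58.6% and 42.7% of features, and no other library lacks one for more than 19.6%.

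No feature gained or lost enrichment with IL-17 beyond the threshold. The quasi-likelihood test of edgeR on all 12 libraries called 0 of 24040 features higher (0%) and 0 lower (0%) at a Benjamini-Hochberg adjusted p under 0.05. A nominal p, before adjustment, fell under 0.05 for 258 features in the higher direction (1.07% of those tested) and 1509 in the lower (6.28%), where 1202 in all are expected if nothing changed. Scaling by library size only, without composition factors, gave 48 and 1749, so the share of higher features moved from 14.6% to 2.67%. DESeq2 called 12 higher and 95 lower. Limma-voom with sample quality weights called none, 0 higher and 0 lower, and its nominal p was under 0.05 for 382 higher and 694 lower. The median log2 change over all tested features was -0.52. Leaving out 1 library moved it, over those of the 24040 still tested, between -1.59 and -0.23. The former was without IgG medium replicate 2, the latter without IgG IL-17 replicate 1. Over each fit's own features, filtered again, it ran from -2.47, without IgG medium replicate 2, to -0.25, without FLAG medium replicate 1. The median change differed in sign between scarce and abundant features, as given next, so it is no common baseline for single features. The median standard error (SE) of a change, worked back from the test statistic, was 1.91 on the log2 scale.

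The size and sign of the change followed the level of the transcript. Tested features were sorted by mean level into 10 bins of 2404. In the lowest bin (median 1.08 CPM, counts scaled to library size with TMM factors), the median log2 change was -2.91. It was -1.75 in the fifth bin (median 4.11 CPM) and -0.03 in the seventh (median 12.3 CPM). In the highest bin (median 107 CPM) it was 0.55. With all 12 libraries, the wider span lay in the IL-17 arm. There the median log2 ratio of FLAG over IgG ran from -2.20 in the lowest bin to 0.41 in the highest, while in medium it ran from 0.61 to -0.10. By these medians, scarce transcripts were recovered less with FLAG than with IgG after IL-17, and abundant ones slightly more. Which arm spans more turned with 1 library: without IgG medium replicate 2, the medium arm ran from 6.20 to -0.11 and the IL-17 arm from -2.22 to 0.40. Against a group without counts, the size of a log2 ratio, and of a change built on it, is set by the fit and is not measured. The gradient is a description over features of shared libraries, without a test.

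**Figure D2:**
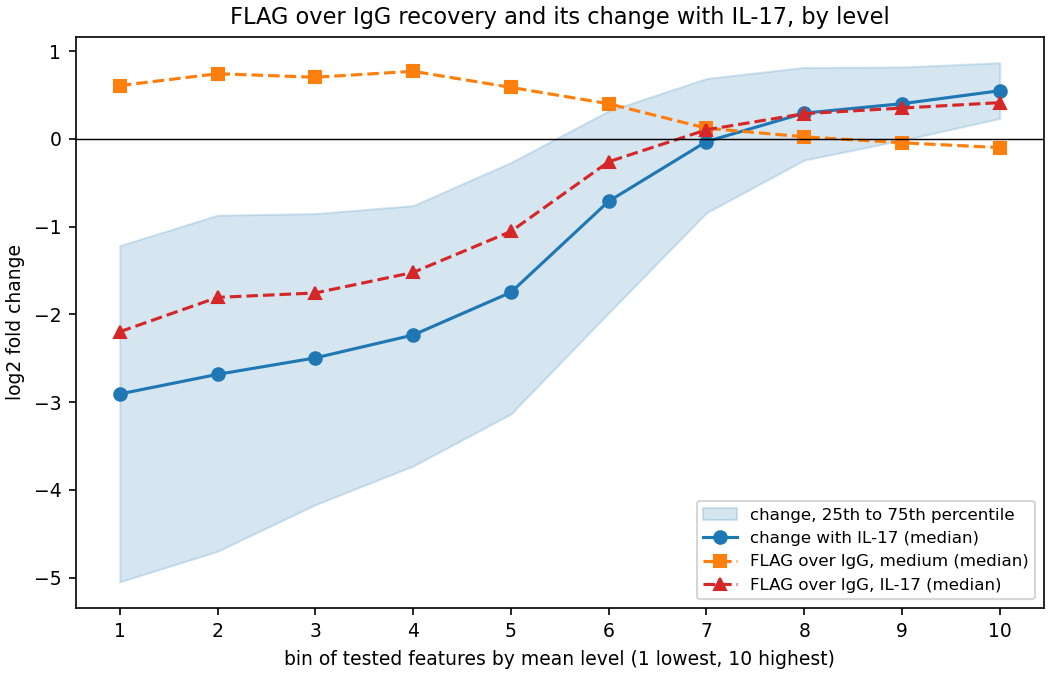
Median log2 fold change (y axis) in 10 bins of the 24040 tested features by mean level (x axis, 2404 features each), for the change with IL-17 (blue, with the interquartile range shaded) and for FLAG over IgG in medium (orange) and with IL-17 (red). The change is -2.91 in the lowest bin and 0.55 in the highest.

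The same gradient ran with missing counts. IgG medium replicate 1 had no count for 92.6% of features in the lowest bin and for 2.75% in the highest. Without IgG medium replicate 2 the lowest bin fell to a median of -8.16, while omitting replicate 1 of FLAG medium gave -1.76. Omitting replicate 1 of IgG IL-17 gave -1.34, and there the IL-17 arm ran from -0.82 to 0.22. The highest bin had a median above 0 whichever of the 12 libraries was omitted, from 0.19 to 0.71, but it was -0.07 with limma on log2(TPM + 1) and -0.16 on log2(TPM + 0.1). By limma-voom with quality weights the lowest bin had a median of -0.04 and the highest 0.04. Limma on log2(TPM + 1) and log2(TPM + 0.1) gave the lowest bin -0.16 and -0.87, where the value added to TPM shrinks changes of scarce features. The standard error shrank along the gradient too, from a median of 3.11 in the lowest bin to 0.78 in the highest. The part of depth and of missing counts in the gradient was not tested.

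Features in the lower direction were scarce and had few or no counts in IgG medium. Of the 1509, 534 (35.4%) had a count of 0 in all 3 IgG medium libraries, against 2.97% of all tested features. Their median of group mean levels was 0.113 CPM in IgG medium, 4.29 in FLAG medium, 2.01 in IgG IL-17 and 0.315 in FLAG IL-17. The median log2 ratio of FLAG over IgG among them was 4.40 in medium and -2.60 with IL-17, and for 1442 of the 1509 the sign differed between treatments. Where a group is at 0, the size of such a ratio is set by the fit and is not measured. Only 44 of the 1509 (2.92%) were counted in every library. These features were chosen by the same contrast, so their values describe it and add no evidence.

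Features in the higher direction were more abundant and better covered. Of the 258, 178 (69.0%) were counted in every library, against 32.5% of all tested features. Their median of group mean levels was 34.2 CPM in IgG medium, 9.31 in FLAG medium, 13.3 in IgG IL-17 and 19.2 in FLAG IL-17. The median log2 ratio of FLAG over IgG was -1.80 in medium and 0.62 with IL-17. By these medians the larger share of the gain lay in medium, where FLAG recovered less of them than IgG did. The 258 features, too, were chosen by the same contrast, so their values describe it and add no evidence. Short transcripts were more frequent among them: 68 fell in the shortest of 10 bins by apparent length, the ratio of count to TPM, where 2.94% of features were higher against 1.07% overall. In that shortest bin 6.70% were lower, close to the 6.28% overall. Some features had identical rounded counts and were counted separately. The 258 held 244 distinct count profiles, and all 24040 tested features held 23983. What such copies add to the share of short features was not tested. Estimated counts were not whole in at least 1 library for 131 of the 258 (50.8%), against 37.2% of all tested features, so reads of these were divided between features.

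Counting only features whose 3 FLAG and 3 IgG libraries did not overlap in either treatment gave a smaller set. FLAG lay below IgG in medium and above it with IL-17 for 34 features (0.141%). The opposite crossing was met by 167 features (0.695%). FLAG lay above IgG in both treatments for 142 (0.591%) and below in both for 13 (0.0541%). The 34 crossing to higher were mostly covered transcripts: 32 were counted in every library, with a median log2 change of 1.72. Among the 167 crossing to lower, 6 were counted in every library, with a median log2 change of -6.18 over the 167. Both crossing sets were chosen by the contrast they describe, so their values add no evidence. How many crossings would arise if nothing changed was not worked out.

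The 2 features named for a gain were the first by p-value among those with at least 20 CPM in the highest group, counts in at least 9 libraries and a sign that no omitted library turned. ENSG00000270882.2 had 1.39, 3.76 and 5.91 CPM in FLAG medium and 25.4, 14.0 and 22.8 CPM in IgG medium, replicates in order. With IL-17 it had 137, 221 and 260 CPM in FLAG and 66.6, 175 and 129 CPM in IgG. FLAG lay below IgG in medium without overlap, and with IL-17 the antibodies overlapped. Levels with IL-17 lay above those in medium without overlap for both antibodies, by 5.77 ± 0.68 (SE) in FLAG and 2.61 ± 0.59 (SE) in IgG on the log2 scale. The log2 ratio of FLAG over IgG was -2.42 ± 0.61 (SE) in medium and 0.74 ± 0.55 (SE) with IL-17. Their difference was 3.16 ± 0.81 (SE), with a nominal edgeR p of 0.000621 and an adjusted p of 0.664. Leaving out any 1 library gave a log2 change of ENSG00000270882.2 between 2.76 and 3.31. DESeq2 gave it an adjusted p of 0.00307. In medium its estimated counts were as low as 5.35 in FLAG replicate 1 and 12 in IgG replicate 1. Estimated counts of ENSG00000270882.2 were not whole in 10 libraries, and what that division adds to its change was not tested.

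ENSG00000207513.1 was the other. It had 8.04, 4.66 and 1.81 CPM in FLAG medium against 390, 1.81 and 17.7 CPM in IgG medium. With IL-17 it had 1243, 2732 and 1790 CPM in FLAG and 123, 306 and 369 CPM in IgG. The antibodies overlapped in medium, where IgG replicate 1 stood far above every other medium library, and FLAG was higher without overlap with IL-17. Its log2 change was 7.64 ± 1.52 (SE, edgeR adjusted p = 0.373), and 4.05 without IgG medium replicate 1.

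ENSG00000207389.1 was named for a loss. It had rounded counts of 0 in all IgG medium libraries and 8.04, 2.48 and 1054.5 CPM in FLAG medium. With IL-17 it had 530.3, 4325 and 2879 CPM in FLAG and 189.7, 2623 and 1193 CPM in IgG, which overlap. Against a floor of 3 counts over the summed IgG medium total, without composition factors, FLAG over IgG was at least 1223-fold in medium and 1.72-fold with IL-17. For the counts as divided between features, the ratio was thus at least 713-fold lower with IL-17, though the medium bound is 27.1-fold without FLAG medium replicate 3. These bounds cover counting error only. They take the division of reads with ENSG00000207513.1, described next, as given, and do not hold for the 2 summed. The edgeR adjusted p of ENSG00000207389.1 was 0.664.

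The counts of the pair just described were linked. ENSG00000207513.1 and ENSG00000207389.1 had the same estimated count, 28.78, and the same TPM, 132.54, in FLAG medium replicate 1, and their counts were not whole in 12 and 10 libraries. Such counts arise when reads are divided between like features, and whether others took part was not tested. Both were short, with an apparent length of 0.0119 and 0.0107 of the median tested feature. Summed, the pair had 16.1, 7.03 and 1056 CPM in FLAG medium and 390, 1.81 and 17.7 CPM in IgG medium. With IL-17 the sum was 1773, 7057 and 4669 CPM in FLAG and 313, 2929 and 1562 CPM in IgG. FLAG and IgG overlapped in both treatments. Fitted as 1 feature, a step chosen after the values were seen, the pair had a log2 change of 0.05 ± 1.83 (SE, edgeR adjusted p = 0.997). FLAG over IgG for the sum was 1.45 ± 1.32 (SE) in medium and 1.49 ± 1.31 (SE) with IL-17. The opposite changes of the pair did not remain in their sum, but the sum itself turned with single libraries: omitting FLAG medium replicate 3 gave 4.55, and omitting IgG medium replicate 1 gave -3.65.

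ENSG00000281344.1 was the other feature named for a loss, and it was long, with a ratio of count to TPM of 109.8 times the median, from the libraries with at least 0.2 TPM. The rule used for gains on level, counts and sign held for losses too, and by p-value ENSG00000281344.1 had rank 55 of all tested features. Unlike most lower features, of which 44 of 1509 were counted in every library, it had counts in all 12. It had 477, 171 and 143 CPM in FLAG medium and 44.5, 251 and 40.0 CPM in IgG medium. With IL-17 it had 32.7, 58.3 and 22.1 CPM in FLAG and 306, 125 and 59.6 CPM in IgG. FLAG lay below IgG without overlap with IL-17, by a small gap, and the antibodies overlapped in medium. The log2 change was -3.33 ± 1.0 (SE, edgeR adjusted p = 0.664). It was -5.03 at the largest and -2.49 at the smallest when 1 library was left out. Estimated counts of ENSG00000281344.1 were not whole in 11 libraries.

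**Figure D3:**
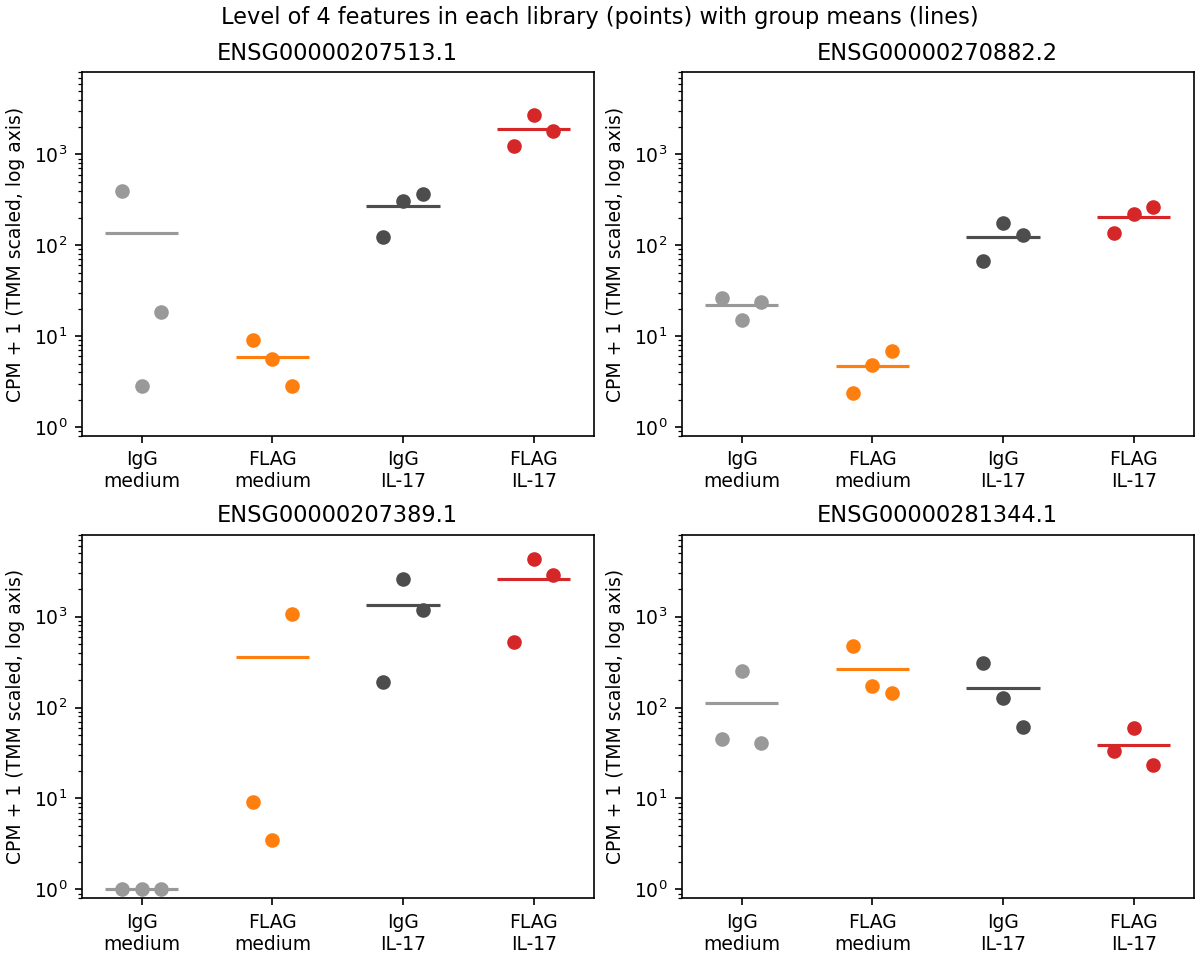
Level of the 4 named features (y axis, CPM + 1, TMM scaled, log axis) in each library (points, replicates 1 to 3 from left to right) with the mean of each group (lines). ENSG00000207389.1 is at 0 CPM in all IgG medium libraries, and 1 FLAG medium library of it is at 1054.5 CPM against 8.04 and 2.48 CPM in the others.

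The number of features on each side moved with single libraries. The filter on low counts was applied again in each such fit, so the tested set changed too, to between 25956 and 29037 features. Leaving out IgG medium replicate 2 gave 6089 lower features at a nominal p under 0.05 (22.3% of 27339 tested) and 496 higher, and left edgeR calling 1 higher and 2 lower at an adjusted p under 0.05. Of the original 24040 features, 24034 were tested in that fit and 5591 were lower, against 1509 with all libraries. Without IgG IL-17 replicate 1 there were 861 lower (3.32% of 25956) and 193 higher. Lower features numbered 3267 (11.4% of 28647) when FLAG medium replicate 3 was omitted and 2822 (10.1% of 28019) when IgG IL-17 replicate 3 was. Without FLAG medium replicate 1 they numbered 1089 (4.0% of 27246), of which 755 were among the original features. Of the original features, 1031 were lower without FLAG IL-17 replicate 1 and 855 without FLAG IL-17 replicate 3. Higher features numbered 433 and 446 without IgG medium replicates 1 and 3, and 146 and 127 without IgG IL-17 replicates 2 and 3. Omitting FLAG IL-17 replicate 1, 2 or 3 gave 140, 97 and 125. With all libraries and with each of the 12 omitted in turn, 23 features (0.0957%) were higher and 299 (1.24%) lower, each time at a nominal p under 0.05. Of those 299, 174 were at 0 in all IgG medium libraries, whereas none of the 23 were, and 17 of the 23 were counted in every library. DESeq2 calls overlapped with them: 7 of its 12 higher features were among the 23, and 78 of its 95 lower features were among the 299, both from the same counts. The sign of the change was the same in the full fit and all 12 others for 12639 features (52.6%).

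**Figure D4:**
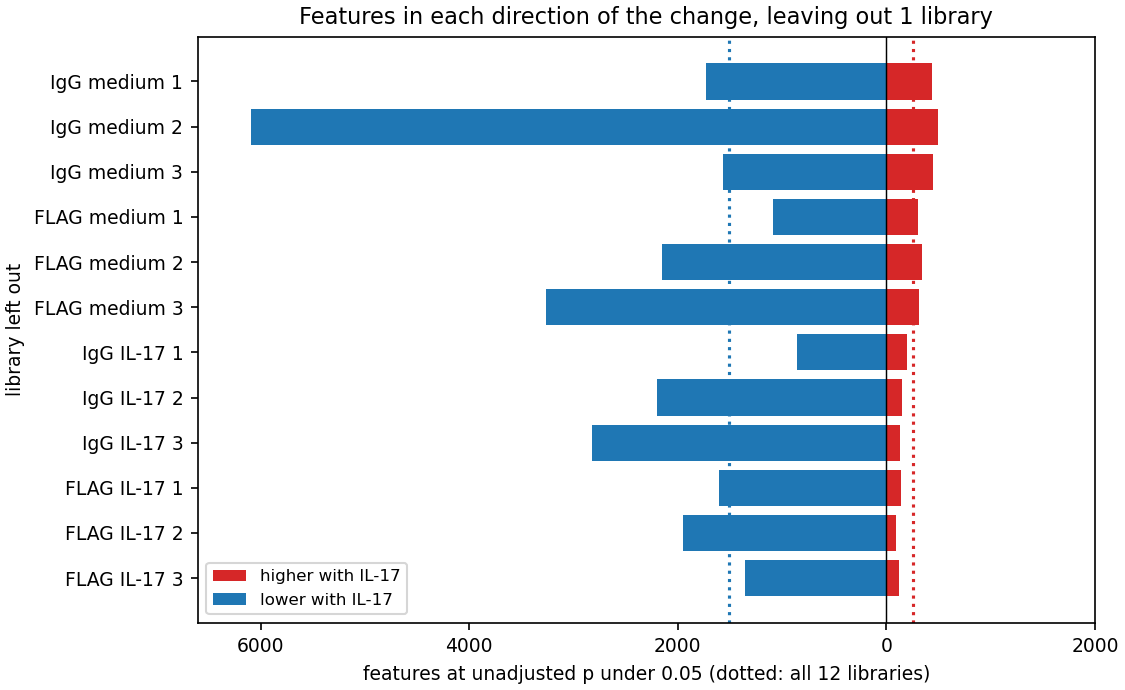
Number of features (x axis) higher (red, right) or lower (blue, left) at a nominal edgeR p under 0.05 when the library on the y axis is left out; dotted lines mark 258 and 1509, the numbers with all 12. Each fit was filtered again, so the tested sets differ, from 25956 to 29037 features. Lower features reach 6089 without IgG medium replicate 2.

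A count in every library was met by 7824 features. In the fit of all 24040 their median log2 change was 0.45, with 178 in the higher direction and 44 in the lower at a nominal p under 0.05. Refitted alone after the values were seen, which centres the scaling on these features, they had a median log2 change of 0.07, with 172 higher and 171 lower, and edgeR called 0 at an adjusted p under 0.05. Both the centring and the choice of features set these counts. Features without a count in a group, which make up much of the lower direction, are left out by the requirement itself.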

How the data were processed

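The submitters' processing notes name STAR 2.7.9 and RSEM 1.3.1, then DESeq2 1.36.0 under R 4.2.0; GRCh38 and hg38 are listed as builds. The role of each tool, the annotation and any use of strand are not stated there. The authors deposited estimated counts per feature. Their second deposited table is named for FPKM, but its columns sum to a common total, so it was treated as TPM. Counts were rounded, passed through filterByExpr with a minimum count of 10, given TMM factors and fitted with edgeR 4.0.16 (R 4.3.3) over all 12 libraries. The change was the contrast (FLAG minus IgG with IL-17) minus (FLAG minus IgG in medium), with Benjamini-Hochberg adjustment over 24040 features. Each SE is the absolute log2 fold change divided by the square root of the quasi-likelihood F statistic. It restates the test and is no separate estimate of spread, least of all where a group is at 0. Apparent length used counts of at least 20 and TPM of at least 0.2. DESeq2 1.42.0 and limma 3.58.1 served as alternatives. The fit was tested on simulated data. It recovered the large changes it was given at a small spread, part of them at the spread these libraries show at each level, and none with 1 common spread. A count of 0 called thus does not exclude large changes. Some unchanged features were called as well, at the small spread and at the spread by level. Named features followed a rule on p-value, level, counts and sign, without the gene symbols it asked for. Members, lists and rules were chosen with earlier results of these data known. Gene lists and cell type markers were not used, since no identifier had a name. Estimated counts divide reads between near-identical features. Depth ran from 746911 counts upward, and the bound against 0 used a floor of 3 counts, covering counting error only.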

Additional observations from a re-analysis of the deposited data

How the results depend on the processing

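Each pair of counts gives the higher direction first, from edgeR except where another tool is stated. At an adjusted p under 0.05 the full fit gave 0 and 0. Keeping all features gave 8 and 7, and DESeq2 gave 12 and 95. Leaving out the 3 libraries with most features at equal depth together with the shallowest gave 111 and 556, with a lone IgG medium library whose spread is taken from the other groups. Fits leaving out 1 library gave 0 to 1 higher and 0 to 2 lower. Pairing was not settled: deviations correlated over 0.1 in 9 of 18 same-numbered library pairs (-0.14 to 0.468), with replicate 3 at 0.213 to 0.392. Other pairs reached 0.488. A replicate block gave 2 and 1, including ENSG00000207513.1 and ENSG00000207389.1. At a nominal p under 0.05 (258 and 1509), library size only gave 48 higher and limma 19 higher and 483 lower on log2(TPM + 1) and 22 and 724 on log2(TPM + 0.1). With other tested sets, against 6.28% lower of 24040, keeping all features gave 548 and 3676 (7.60% lower of 48364), the filter of 50 counts in 3 libraries 168 and 426 (3.21% of 13278), thinning to the shallowest library 124 and 267 (2.61% of 10222), and leaving out the 3 libraries 411 and 2784 (12.8% of 21789). Leaving out those and the shallowest gave 1475 and 3882 (13.4% of 28872). Lower features numbered 2571 by DESeq2, 694 by voom with quality weights and 171 among the 7824 features counted in every library, a set that leaves out features absent from a group. Leaving out 1 library, filtered again each time, gave 97 to 496 higher and 861 to 6089 lower, or 3.32% to 22.3% of those tested. Higher features made up 14.6% of these in the full fit, 8.67% with RLE factors, 2.67% with library size only and 15.5% with upper-quartile factors. The median change was -1.01, -1.08 and -0.74 with those scalings, and 0.071 in features counted in every library. The highest of 10 bins by level turned to -0.072 and -0.16 with limma on log2(TPM + 1) and log2(TPM + 0.1). The named features were chosen for a sign that no left-out library turned, so those 12 fits say nothing of it. In the other 14 or 15 alternatives, which share the same libraries, none changed sign, and each passed the adjusted threshold in 2 to 4. Over all alternatives their log2 changes ran from 3.18 to 8.38 for ENSG00000207513.1, 2.11 to 3.31 for ENSG00000270882.2, -14.93 to -6.46 for ENSG00000207389.1 and -5.03 to -0.30 for ENSG00000281344.1. The -0.30 came from limma on log2(TPM + 1), and ENSG00000281344.1 had at most 0.56 TPM in any library. On log2(TPM + 0.1) its change was -1.61. Where no feature or library was dropped, the cause was not tested. Leaving out the transfected gene was not run. Zeros did not follow depth alone: tested features at 0 made up 58.6% in the shallowest library (746911 counts), 9.46% in FLAG medium replicate 1 (2402395 counts) and 42.7% in IgG medium replicate 3 (3803261 counts).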
